A study of Mus musculus with 7 samples.

Results

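The mononuclear phagocytes of the mouse colon were followed through 10 genes, Cd68, Adgre1, Csf1r, Mrc1, C1qa, C1qb, C1qc, Cd14, Ccr2 and Fcgr1, taken by name from the 18036 genes listed with reads in at least 1 of 7 RNA-seq libraries. C1qa, C1qb, C1qc, Adgre1 and Mrc1 were set as the 5 resident-type genes, Cd14, Ccr2 and Fcgr1 as the 3 recruited-type genes, and Cd68 and Csf1r were in neither class. Levels are given as RPKM, reads per kilobase of gene length per 1000000 uniquely mapped reads, which allows comparison between genes of different length. All 10 genes passed the filter on low values, at least 1 RPKM in at least 2 of the 7 libraries.

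Female hCYP1A mice on the C57BL/6 strain, 6 weeks old, were used throughout. The PhIP/DSS mice were first dosed with PhIP, a dietary carcinogen of well-cooked meat and fish (100 mg/kg, 2 doses separated by 4 days), and a week later drank water with 1.5% dextran sulfate sodium (DSS) over 5 days. The DSS mice had the same DSS course without PhIP, and the control mice were untreated. DSS is a polysaccharide that damages the colon lining and causes colitis, and colons were collected on day 1, 3 or 7 after it. Each of the 7 conditions was 1 library made from the combined RNA of 3 mice, so no condition had a replicate library and the differences between mice within a pool are not seen. The RNA came from lining scraped off the muscle layer, which holds epithelium together with the immune and stromal cells beneath it.

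As background, most macrophages of the healthy colon are renewed from blood monocytes that enter through the chemokine receptor CCR2 and mature under signalling by the CSF1 receptor. Mature residents carry F4/80 (Adgre1) and the mannose receptor (Mrc1) and make C1q, the recognition molecule of the classical complement pathway. Newly arrived cells carry more CCR2. The lipopolysaccharide co-receptor CD14 and the high-affinity IgG receptor Fcgr1 were placed with it in the recruited-type class for the contrast below. That placing was not tested, and neither gene is taken here as a mark of newly arrived cells alone.

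Library totals lay between 7.66 and 8.78 M unique reads (1 M is 1000000). The libraries were dominated by epithelium, with 8 epithelial markers (Epcam, keratins and others) summing to between 8386 and 10670 RPKM. All 10 macrophage and monocyte genes had reads in every library, at very different levels: Cd14 lay at 23.6 RPKM in the untreated control while Fcgr1 there rested on 1 read. Of 8 dendritic cell markers the summed level was between 0.459 and 5.31 RPKM, with 4 of 8 at 0 in DSS day 1. The sum of 9 neutrophil markers was 786, 30.8 and 65.2 RPKM in PhIP/DSS on days 1, 3 and 7, 35.7, 1161 and 458 RPKM in DSS on those days, and 2.81 RPKM in the control. The sum of 8 fibroblast markers was 170, 37.7 and 68.3 RPKM in PhIP/DSS, 40.0, 85.8 and 88.4 RPKM in DSS, and 11.2 RPKM in the control. Both sums were highest in PhIP/DSS day 1 and DSS days 3 and 7, the same 3 libraries that were highest in Cd68, Csf1r, Adgre1, Cd14 and Fcgr1, whereas the C1q chains and Mrc1 did not follow them: from DSS day 1 to DSS day 3 Mrc1, C1qc and C1qa differed by less than counting error. PhIP/DSS day 1 also stood apart in fat markers, 6 of which summed to 150 RPKM there, against 22.2 RPKM in the control and 0.187 to 2.70 RPKM in the other 5 libraries. The part of the other cell types in the values below was not tested, and more cells of a type cannot be told apart from more RNA per cell.

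All 10 genes were higher than in the control in each of the 6 treated libraries, by 1.76-fold (C1qa, DSS day 1) to 154-fold (Fcgr1, PhIP/DSS day 1). The interval of the ratio, a 95% interval that covers counting error only, lay above 1 for 10, 8 and 10 of the 10 genes in PhIP/DSS on days 1, 3 and 7 and for 9, 10 and 10 in DSS on those days. The exceptions were Adgre1 and Fcgr1 in PhIP/DSS day 3 and Ccr2 in DSS day 1. The share of all genes with such an interval is not given here, so these counts have no background beside them. With a difference counted at 2-fold or more and at least 1 RPKM in either library, 10, 6 and 9 of the 10 genes were higher than in the control in PhIP/DSS on days 1, 3 and 7, against 12.8%, 4.52% and 7.39% of all genes. In DSS the numbers were 5, 9 and 10 of 10 on those days, against 5.72%, 7.74% and 7.69% of all genes. Here and below, shares of all genes at a fold limit are over the genes with at least 1 RPKM in either library (11820 to 12294 against the control). Of the 10 genes, 7 reached that level in PhIP/DSS day 3 and in DSS day 1, and 9 in PhIP/DSS day 7. Fcgr1 was below it in all of these, so it could not be counted there. None of the 10 was 2-fold lower in any treated library, a direction taken by 10.7%, 5.11% and 4.68% of all genes in PhIP/DSS and by 7.19%, 7.47% and 6.2% in DSS. These comparisons share the single control library. The plot of levels by library shows the courses of all 10 genes.

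**Figure D1:**
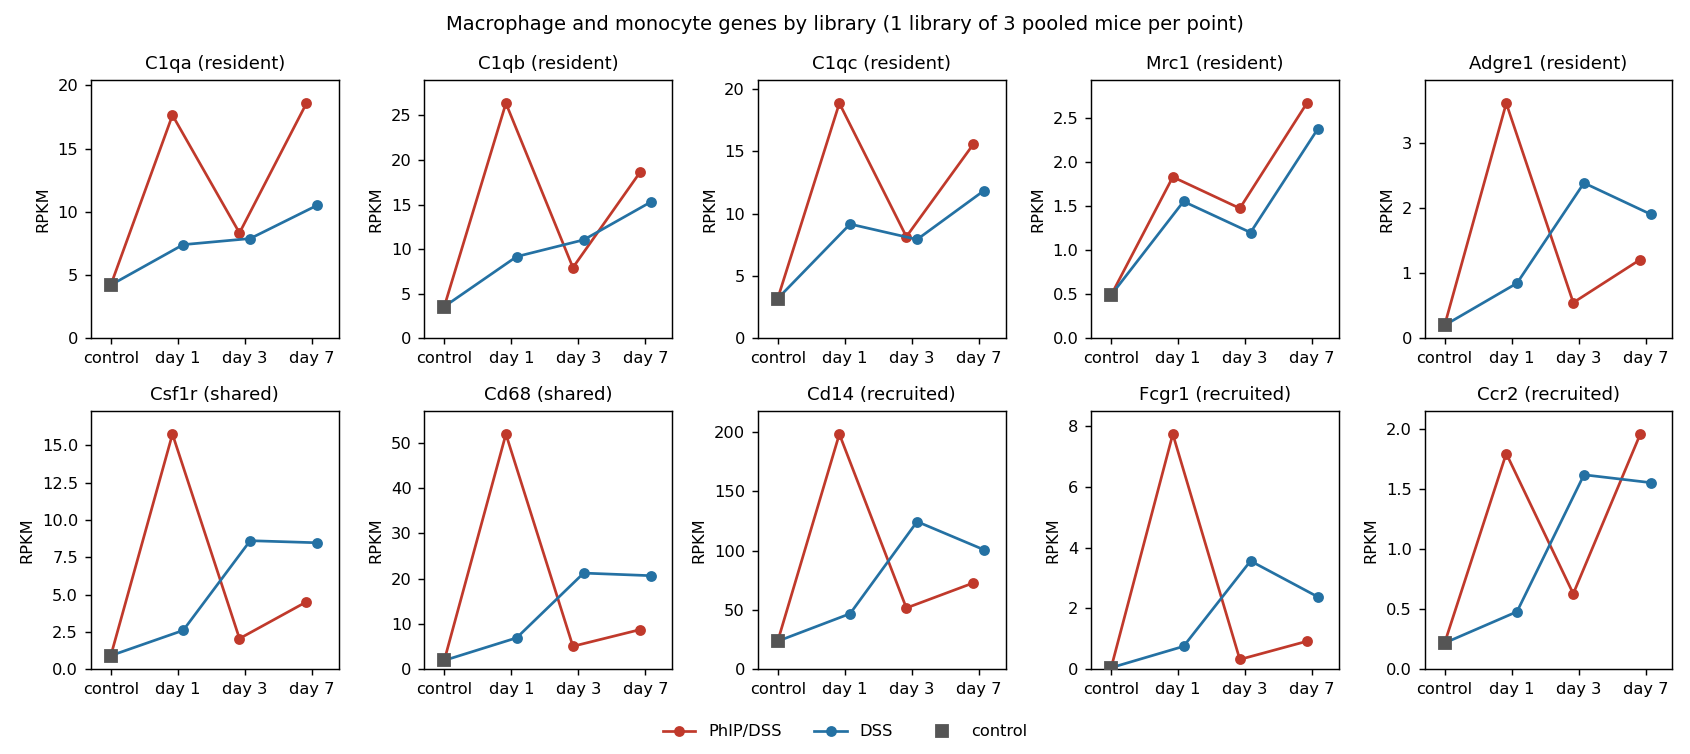
RPKM of the 10 genes in the control and on days 1, 3 and 7 after DSS, with PhIP/DSS in red, DSS in blue and the control as a grey square; each point is 1 library of 3 pooled mice, and axes start at 0. Cd68 stood at 51.9 RPKM in PhIP/DSS day 1 and at 5.06 RPKM in PhIP/DSS day 3, while the 2 lines of Mrc1 ran close together.

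A test across all genes was possible only by taking the spread from how the difference between the arms varied over the days, with 1 level for the control and each day, a PhIP term and 2 residual degrees of freedom. In that fit edgeR's quasi-likelihood test called 0 of the 10 genes and 0 of 12061 genes (0.0%) at an adjusted p under 0.05, in each of the 5 comparisons made. The median fitted log2 difference from the control was 2.32, 2.18 and 2.60 over the 10 genes on days 1, 3 and 7, and 0.01, 0.01 and -0.01 over all genes tested. For day 1 the median over the 10 was 1.17 without PhIP/DSS day 1 and 3.36 without DSS day 1, and for day 3 it was 0.988 without DSS day 3. At an unadjusted p under 0.05 it found 4, 2 and 4 of the 10 genes for days 1, 3 and 7 against the control, all higher and all from Mrc1 and the 3 C1q genes, where 32.6%, 19.0% and 17.2% of all genes passed. It found 1 of 10 for day 7 against day 1 (26.3% of all genes) and 1 of 10 for PhIP/DSS against DSS (3.66%). DESeq2, run on the same design, called C1qb, C1qc and Fcgr1 on day 1, where it called 10.4% of all genes, none of the 10 on day 3 (3.58%), and C1qc and Mrc1 on day 7 (4.0%), all higher than in the control. It called none of the 10 for day 7 against day 1 (5.83%) or for PhIP/DSS against DSS (0.149%). limma on log2(RPKM + 1) called none of the 10 in any comparison, and 0.0% to 0.0166% of all genes. Without the PhIP/DSS day 1 library edgeR called 2, 8 and 10 of the 10 genes for days 1, 3 and 7 against the control, where it called 11.4%, 18.0% and 15.8% of all genes. Without the DSS day 1 library it called 10, 8 and 10 of the 10, and 35.4%, 17.6% and 15.4% of all genes. No other left-out library brought a call among the 10.

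C1qa, C1qb and C1qc encode the A, B and C chains that together form C1q, and the 3 genes lie side by side on chromosome 4 (C1qa, gene ID 12259, at chr4:136895916-136898844; C1qb, 12260, at chr4:136880126-136886200; C1qc, 12262, at chr4:136889801-136892936; GRCm38.p6). The 3 chains were high in PhIP/DSS on days 1 and 7 and lower on PhIP/DSS day 3 and in DSS. The sequences just before the start sites of C1qb and C1qc are shown because these genes kept almost the same profile, and those of Mrc1 and Fcgr1 because these were the least alike of the 10. They come from RefSeq (GRCm38.p6), each the 250 bases before the start site that RefSeq's promoter table uses, 5′ to 3′ on the gene's own strand, at chr4:136886201-136886450 (minus strand) for C1qb, chr4:136892915-136893164 (minus) for C1qc, chr2:14229164-14229413 (plus) for Mrc1 and chr3:96293970-96294219 (minus) for Fcgr1. Capitals mark AGGAAG on either strand (CTTCCT on the strand shown), the core of sites bound by PU.1, a transcription factor of myeloid cells.
C1qb: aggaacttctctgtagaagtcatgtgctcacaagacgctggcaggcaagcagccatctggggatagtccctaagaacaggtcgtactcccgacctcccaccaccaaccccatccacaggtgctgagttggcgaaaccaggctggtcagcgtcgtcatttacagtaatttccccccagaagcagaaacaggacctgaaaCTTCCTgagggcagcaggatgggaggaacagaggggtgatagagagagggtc
C1qc: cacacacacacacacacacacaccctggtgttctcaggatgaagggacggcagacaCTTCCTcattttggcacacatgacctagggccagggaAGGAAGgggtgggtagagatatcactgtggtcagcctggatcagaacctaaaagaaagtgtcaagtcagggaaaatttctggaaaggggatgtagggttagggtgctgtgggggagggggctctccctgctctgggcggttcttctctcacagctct
Mrc1: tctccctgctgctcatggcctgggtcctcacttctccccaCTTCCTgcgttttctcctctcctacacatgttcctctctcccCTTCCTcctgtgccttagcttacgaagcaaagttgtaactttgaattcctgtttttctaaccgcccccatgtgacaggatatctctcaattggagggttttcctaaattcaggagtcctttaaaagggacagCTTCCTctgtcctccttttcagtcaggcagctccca
Fcgr1: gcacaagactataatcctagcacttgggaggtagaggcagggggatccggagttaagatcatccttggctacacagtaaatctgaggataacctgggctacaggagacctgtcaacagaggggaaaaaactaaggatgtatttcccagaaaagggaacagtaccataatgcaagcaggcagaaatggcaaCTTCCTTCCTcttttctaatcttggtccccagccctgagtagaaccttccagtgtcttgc

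Windows of 6 of the 10 genes were searched (Cd68, Mrc1, C1qb, C1qc, Ccr2 and Fcgr1). AGGAAG was present in these 4 and in neither Cd68 nor Ccr2, while 29.5% of 32851 promoter windows of the same 250 bases held it. Mrc1 had 3 matches, C1qc 2, C1qb 1, and Fcgr1 2 that overlap by 2 bases, 60 and 56 bases before the start. The interferon-response type element, GAAA repeated after a gap of 2 bases of any kind and searched on both strands, was in 0 of the 6 windows and in 2.98% of all windows. That start site lies inside the gene's full span for C1qc, so that 22 bases of its window belong to the span given above, and for Ccr2, where all 250 do. The motifs were chosen after the sequences had been seen, and a match is a run of letters, not a measured binding site.

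C1qa had 17.6, 8.34 and 18.6 RPKM in PhIP/DSS on days 1, 3 and 7, 7.41, 7.89 and 10.5 RPKM in DSS on those days, and 4.22 RPKM in the control (35 to 169 reads). C1qb had 26.4, 7.94 and 18.6 RPKM in PhIP/DSS, 9.17, 11.04 and 15.3 RPKM in DSS, and 3.56 RPKM in the control (29 to 239 reads). C1qc had 18.8, 8.15 and 15.6 RPKM in PhIP/DSS, 9.16, 7.93 and 11.8 RPKM in DSS, and 3.19 RPKM in the control (26 to 171 reads). The 3 chains thus shared a course: in PhIP/DSS a dip on day 3 between high levels on days 1 and 7, in DSS the highest level on day 7. The mean of the 3 chains was 21.0 ± 4.72, 8.14 ± 0.201 and 17.6 ± 1.75 RPKM in PhIP/DSS on days 1, 3 and 7 and 8.58 ± 1.01, 8.95 ± 1.81 and 12.6 ± 2.46 RPKM in DSS, against 3.66 ± 0.521 RPKM in the control (SD over the 3 chains of 1 library, not over mice). On PhIP/DSS day 3 C1qb was 0.301 times its PhIP/DSS day 1 level (interval 0.228 to 0.394), and on PhIP/DSS day 7 it was 2.34 times its day 3 level (1.77 to 3.14). C1qa differed from C1qb only slightly in level: their ratio was 0.669, 1.05 and 0.999 in PhIP/DSS on days 1, 3 and 7, 0.808, 0.715 and 0.689 in DSS, and 1.18 in the control, where C1qa was the higher of the pair. In the edgeR fit C1qc had a log2 difference from the control of 2.06 (SE 0.41, adjusted p = 0.0712) on day 1, 1.37 (SE 0.40, adjusted p = 0.205) on day 3 and 2.11 (SE 0.41, adjusted p = 0.142) on day 7. C1qa alone of the 10 had an unadjusted edgeR p under 0.05 for PhIP/DSS against DSS, where its log2 difference was 0.71 (SE 0.27, adjusted p = 0.998; 0.45 without PhIP/DSS day 1), and it was higher in PhIP/DSS on each of the 3 days, on day 3 by less than counting error.

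Mrc1, the mannose receptor that takes up glycoproteins (gene ID 17533, chr2:14229414-14332023), was the steadiest of the 10 between the arms. It had 1.83, 1.47 and 2.66 RPKM in PhIP/DSS on days 1, 3 and 7, 1.55, 1.20 and 2.37 RPKM in DSS on those days, and 0.490 RPKM in the control (20 to 119 reads). Its PhIP/DSS over DSS ratio was 1.18, 1.23 and 1.12 on days 1, 3 and 7, and the counting interval held 1 on each day, the widest being 0.847 to 1.79 on day 3. Both arms were highest on day 7, and only the step down to the control was beyond counting error among neighbours in the order of its levels. On day 7 Mrc1 was 5.43-fold (3.36 to 9.21) and 4.83-fold (2.97 to 8.23) its control level in PhIP/DSS and in DSS. Its edgeR log2 differences from the control were 1.77 (SE 0.28, adjusted p = 0.0710) on day 1, 1.46 (SE 0.28, adjusted p = 0.153) on day 3 and 2.38 (SE 0.28, adjusted p = 0.0912) on day 7. Its difference of day 7 from day 1 was 0.61 (SE 0.20, adjusted p = 0.149). These were the smallest standard errors of the 10 genes in all 5 comparisons, the largest being those of Fcgr1.

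Adgre1, classed as resident, did not keep the course of C1q and Mrc1. Adgre1 (F4/80, an adhesion receptor used to mark mouse macrophages; gene ID 13733, chr17:57358581-57483529) had 3.61, 0.549 and 1.21 RPKM in PhIP/DSS on days 1, 3 and 7, 0.847, 2.39 and 1.90 RPKM in DSS on those days, and 0.201 RPKM in the control (5 to 100 reads). Csf1r, the receptor for the macrophage growth factors CSF1 and IL-34 (gene ID 12978, chr18:61105572-61131139), had 15.8, 2.05 and 4.52 RPKM in PhIP/DSS, 2.60, 8.61 and 8.47 RPKM in DSS on days 1, 3 and 7, and 0.909 RPKM in the control (27 to 521 reads). Cd68, a lysosomal glycoprotein of phagocytes (gene ID 12514, chr11:69664213-69666170), had 51.9, 5.06 and 8.74 RPKM in PhIP/DSS, 6.93, 21.2 and 20.7 RPKM in DSS, and 1.94 RPKM in the control (15 to 447 reads). All 3 were highest of the 7 libraries in PhIP/DSS day 1, next in DSS day 3 and then in DSS day 7, and lowest of the treated libraries in PhIP/DSS day 3. On PhIP/DSS day 1 Cd68 was 26.8-fold its control level (16.05 to 48.2), Adgre1 18.0-fold (7.44 to 56.5) and Csf1r 17.3-fold (11.8 to 26.5). By PhIP/DSS day 3 Cd68 was down to 0.0975 times its PhIP/DSS day 1 level (0.0696 to 0.133), Csf1r to 0.130 times (0.0995 to 0.168) and Adgre1 to 0.152 times (0.0820 to 0.263). In DSS the same step from day 1 to day 3 went up, by 3.06-fold for Cd68 (2.28 to 4.16), 3.31-fold for Csf1r (2.60 to 4.25) and 2.82-fold for Adgre1 (1.75 to 4.69). DSS day 7 differed from DSS day 3 by less than counting error in all 3. The Adgre1 over Csf1r ratio stayed between 0.221 and 0.326 in all 7 libraries.

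Cd14, the co-receptor that hands lipopolysaccharide to TLR4 (gene ID 12475, chr18:36725064-36726815), was the most abundant of the 10 in every library. It had 198, 51.6 and 72.8 RPKM in PhIP/DSS on days 1, 3 and 7, 46.8, 124 and 101 RPKM in DSS on those days, and 23.6 RPKM in the control (271 to 2533 reads). With these depths 5 of the 6 steps in the order of its levels were beyond counting error, all but PhIP/DSS day 3 over DSS day 1. On PhIP/DSS day 1 it was 8.39-fold the control (7.40 to 9.55), a smaller ratio than those of Cd68, Csf1r and Adgre1 there. Its ratio to the mean of the C1q chains was 9.46, 6.34 and 4.14 in PhIP/DSS on days 1, 3 and 7, 5.46, 13.9 and 8.02 in DSS, and 6.46 in the control.

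Fcgr1, the high-affinity receptor for IgG (CD64; gene ID 14129, chr3:96282909-96293969), spanned the widest range. It had 7.74, 0.321 and 0.920 RPKM in PhIP/DSS on days 1, 3 and 7 (171, 7 and 20 reads), 0.752, 3.56 and 2.39 RPKM in DSS on those days (17, 81 and 51 reads), and 0.0504 RPKM in the control (1 read). Reads covered 68.8% of its length in PhIP/DSS day 1 and 1.89% in the control. Because the control holds 1 read, the ratio of PhIP/DSS day 1 to the control, 154-fold, has an interval of 27.2 to 6099. Between treated libraries the contrast was better supported: PhIP/DSS day 3 was 0.0415 times PhIP/DSS day 1 (0.0164 to 0.0873), and DSS day 3 was 4.74 times DSS day 1 (2.78 to 8.53). Its edgeR log2 difference on day 1 was 6.48 (SE 3.03, adjusted p = 0.211). This value rested on the day 1 libraries, being 2.60 (adjusted p = 0.276) without PhIP/DSS day 1 and 8.23 (adjusted p = 0.000666) without DSS day 1.

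Ccr2, the receptor that draws monocytes out of the bone marrow towards CCL2 (gene ID 12772, chr9:124101918-124109140), had a course of its own. It had 1.80, 0.628 and 1.96 RPKM in PhIP/DSS on days 1, 3 and 7 (55, 19 and 59 reads), 0.479, 1.62 and 1.55 RPKM in DSS on those days (15, 51 and 46 reads), and 0.218 RPKM in the control (6 reads). The 4 highest libraries, PhIP/DSS days 7 and 1 and DSS days 3 and 7, could not be told apart from one another by counting error between neighbours in the order, while DSS day 7 was 2.47 times (1.42 to 4.46) the next one, PhIP/DSS day 3. Unlike Fcgr1, Ccr2 was as high on PhIP/DSS day 7 as on PhIP/DSS day 1 (ratio 1.09, 0.742 to 1.60), where Fcgr1 was at 0.119 times (0.0708 to 0.189). The Fcgr1 over Ccr2 ratio was accordingly 4.31, 0.511 and 0.470 in PhIP/DSS on days 1, 3 and 7, 1.57, 2.20 and 1.54 in DSS, and 0.231 in the control.

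The arms were compared on each day, PhIP/DSS over DSS, for levels with and without PhIP beforehand. On day 1, 9 of the 10 genes were at least 2-fold higher in PhIP/DSS than in DSS, against 7.43% of all genes, and 0 were lower, against 1.77%. Fcgr1 was 10.3-fold higher (6.24 to 18.1), Cd68 7.49-fold (5.72 to 9.96), Csf1r 6.05-fold (4.82 to 7.68), Adgre1 4.26-fold (2.71 to 6.96), Cd14 4.23-fold (3.87 to 4.63) and Ccr2 3.75-fold (2.09 to 7.15). The C1q chains were 2.06- to 2.88-fold higher, and Mrc1 was the exception at 1.18-fold. On day 3 the order was turned round for 6 genes, which were at least 2-fold lower in PhIP/DSS than in DSS, against 4.3% of all genes, with 0 higher, against 2.1%. They were Fcgr1 at 0.0901 times its DSS level (0.0351 to 0.194), Adgre1 at 0.230, Cd68 and Csf1r both at 0.238, Ccr2 at 0.388 and Cd14 at 0.415 times. C1qa, C1qc and Mrc1 had ratios of 1.06, 1.03 and 1.23 on day 3, with intervals that held 1, and C1qb was at 0.719 times (0.523 to 0.982). On day 7 Fcgr1 (0.385 times, 0.218 to 0.658) and Cd68 (0.423 times, 0.318 to 0.558) were 2-fold lower in PhIP/DSS, against 2.59% of all genes, and 0 were 2-fold higher, against 2.33%. Csf1r was at 0.533 times and Cd14 at 0.723 times their DSS levels, both intervals below 1, whereas C1qa at 1.77 times (1.37 to 2.30) and C1qc at 1.31 times (1.01 to 1.71) were higher in PhIP/DSS. For Adgre1, Mrc1, C1qb and Ccr2 the interval held 1 on day 7. The edgeR PhIP term, which averages these days, gave log2 differences of -0.62 to 0.71 with standard errors of 0.16 to 1.53 and adjusted p of 0.998 for all 10 genes. The median of that term over the 10 was 0.13, and it was -0.67 without either day 1 library and 0.82 without either day 3 library. Markers of other cells differed in the same comparisons. On day 1, 8 of 9 neutrophil markers, 7 of 8 fibroblast markers, 4 of 7 endothelial markers and 5 of 6 fat markers were 2-fold above their DSS level in PhIP/DSS. The summed fat level was 150 RPKM in PhIP/DSS day 1 against 1.12 RPKM in DSS day 1, where 2 of the 6 were at 0, and the endothelial sum was 11.3 against 4.33 RPKM. On day 3, 8 of 9 neutrophil, 3 of 8 fibroblast and 2 of 7 endothelial markers were 2-fold lower in PhIP/DSS, and of the fat markers 1 was higher and 1 lower. All 7 genes of a pan-leukocyte list were 2-fold higher in PhIP/DSS on day 1 and 2-fold lower on day 3. On day 7, 8 of 9 neutrophil markers and 1 of 7 pan-leukocyte genes were 2-fold lower in PhIP/DSS. In turn 6 of 8 T cell, 5 of 8 B and plasma cell and 3 of 7 mast cell markers were 2-fold higher there. Their part in the differences of the 10 genes was not tested.

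The recruited-type genes were then set against the resident-type genes, as the mean log2(RPKM + 0.1) of Cd14, Ccr2 and Fcgr1 minus that of the C1q chains, Adgre1 and Mrc1, taken as a change from the control. This difference was 1.23, 0.08 and 0.14 in PhIP/DSS on days 1, 3 and 7 and 0.10, 1.55 and 0.83 in DSS on those days. The recruited-type mean was 3.78 above the control in PhIP/DSS day 1 and 3.14 above it in DSS day 3, where the resident-type mean was 2.55 and 1.59 above. The 3 smallest differences changed sign under other settings: with a pseudocount of 1 they were -0.19 and -0.39 in PhIP/DSS on days 3 and 7 and -0.24 in DSS day 1, and without Fcgr1, left out after its 1 control read had been seen, -0.03, -0.06 and -0.43. The 3 largest stayed above 0 under each setting tried, but without Fcgr1 they were 0.27 in PhIP/DSS day 1 and 0.82 and 0.23 in DSS on days 3 and 7. Of 15 pairs of 1 recruited-type and 1 resident-type gene, the recruited-type gene had the larger change from the control in 12, 10 and 10 pairs in PhIP/DSS on days 1, 3 and 7 and in 7, 13 and 13 pairs in DSS. Fcgr1, with its 1 control read, had the larger change in each of its 5 pairs in every treated library. These counts thus lean on Fcgr1, and counts without it are not given. Adgre1 was the resident-type gene with the largest change in PhIP/DSS day 1 (3.62) and DSS day 3 (3.05), as the plot of changes from the control shows.

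**Figure D2:**
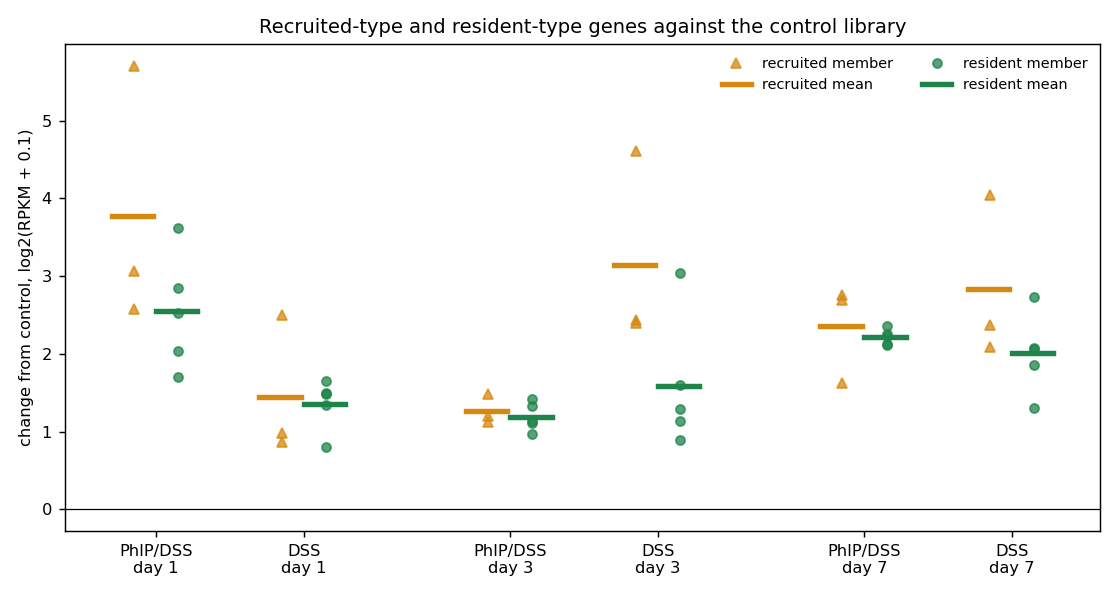
Change from the control library in log2(RPKM + 0.1) for the 3 recruited-type genes (orange triangles) and the 5 resident-type genes (green circles) in each treated library, with a bar at each class mean. The orange mean stands apart from the green one in PhIP/DSS day 1 (3.78 and 2.55) and in DSS days 3 and 7, each time with Fcgr1 as the topmost triangle.

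Profiles were compared by the root mean square difference between genes over the 7 libraries, each gene's log2(RPKM + 0.1) values centred on their mean, so that 0 means the same course. The classes did not separate: the median difference was 0.404 within the resident-type genes (10 pairs), 0.897 within the recruited-type genes (3 pairs) and 0.603 between the classes (15 pairs). The closest pair of the 10 was Adgre1 and Csf1r at 0.193, followed by C1qb and C1qc at 0.197, and the farthest was Mrc1 and Fcgr1 at 1.50. Cd68 was nearest to Csf1r (0.235), Fcgr1 to Cd68 (0.406), Cd14 to Adgre1 (0.283), Ccr2 to C1qb (0.399), and Mrc1 (0.309) and C1qa (0.223) to C1qc. The values rest on 7 libraries that the genes share.

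**Figure D3:**
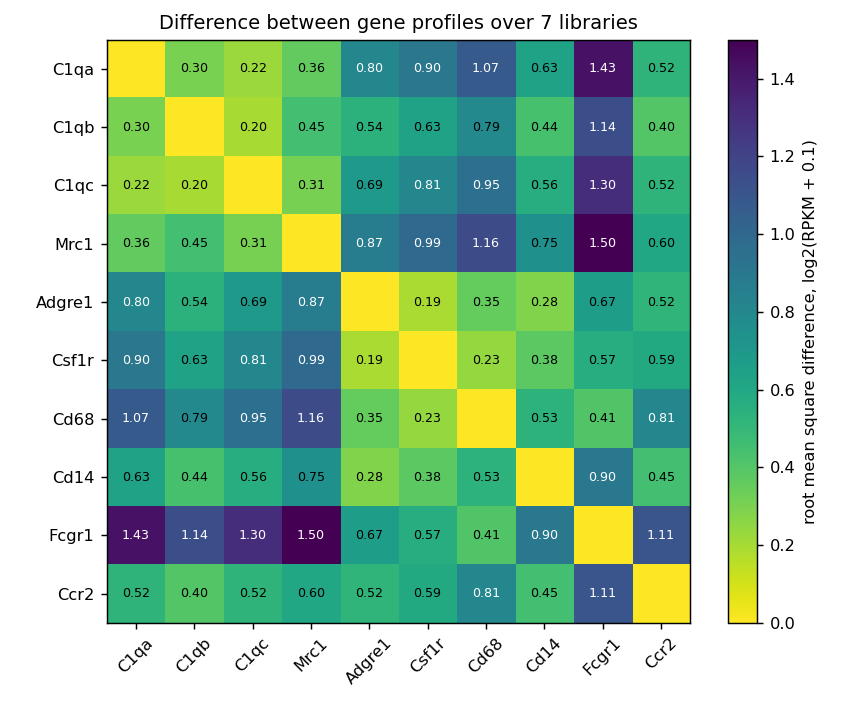
Root mean square difference between the centred log2(RPKM + 0.1) profiles of each pair of the 10 genes over 7 libraries, yellow for alike and dark for unlike. Differences were up to 0.45 among C1qa, C1qb, C1qc and Mrc1, and up to 0.53 among Adgre1, Csf1r, Cd68 and Cd14. These 2 sets were not fully apart, with differences between them from 0.435 (C1qb and Cd14) to 1.16 (Mrc1 and Cd68).

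Among 12060 other genes tested, the most alike to each of the 10 were as follows. Nearest to Csf1r were Mpeg1 (0.116) and Cybb (0.127), a phagocyte pore-forming protein and the catalytic subunit of the phagocyte oxidase. Adgre1 ran with Dab2 (0.0999) and with Spi1 (0.127), which encodes PU.1. C1qb ran with Rhoj (0.187) and the lipid carrier Apoe (0.190), and C1qc with Sparcl1 (0.194) and C1qb. C1qa had Ifi47 (0.154) and Slfn5 (0.157), both interferon-inducible, as its nearest genes. Fcgr1 had Slc11a1 (0.193), a metal transporter of phagosomes, and Adam8 (0.262), and Ccr2 had Pxdn (0.186) and the guanylate-binding protein gene Gbp4 (0.243). Cd68 had Snai1 (0.104) and Ecm1 (0.198), Cd14 had Emilin1 (0.154) and Spon1 (0.157), and Mrc1 had Fam3c (0.194) and Ifit2 (0.240).

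Each gene was also set over Ptprc, which encodes CD45, the surface phosphatase of nearly all leukocytes. Ptprc itself had 10.1, 2.13 and 6.78 RPKM in PhIP/DSS on days 1, 3 and 7, 2.06, 7.77 and 5.74 RPKM in DSS on those days, and 3.37 RPKM in the control. Of 60 ratios of the 10 genes to Ptprc in treated libraries 59 were above the control's ratio, the exception being C1qa in DSS day 3 at 0.812 times. Relative to Ptprc, C1qb, C1qc and Mrc1 were highest in DSS day 1 and C1qa in PhIP/DSS day 3, the 2 libraries with the least Ptprc. Mrc1 over Ptprc was 1.25, 4.75 and 2.70 times the control's ratio in PhIP/DSS on days 1, 3 and 7 and 5.18, 1.06 and 2.84 times in DSS. Fcgr1 over Ptprc was 51.5, 10.1 and 9.09 times the control's ratio in PhIP/DSS and 24.5, 30.7 and 27.8 times in DSS, all resting on the 1 control read. The ratios depend on the choice of Ptprc, which had the lowest mean level of 7 pan-leukocyte genes. In PhIP/DSS day 1 these 7 were 2.98 (Ptprc) to 26.6 times (Cd53) their control level. In DSS day 1 they were 0.610 (Ptprc) to 2.24 times (Cd53). Ptprc is also expressed by neutrophils and lymphocytes, whose part in these ratios was not tested.

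**Figure D4:**
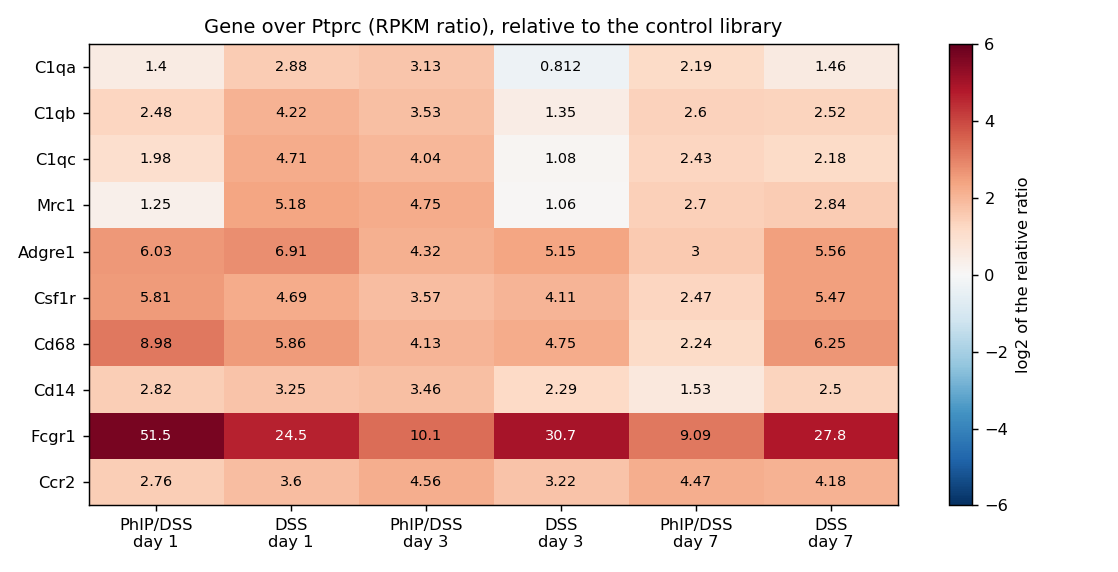
RPKM of each of the 10 genes over RPKM of Ptprc in each treated library, divided by the same ratio in the control (1 is the control's value; colour is its log2). C1qa to Mrc1 stand at 0.812 to 1.35 in DSS day 3 and at 2.88 to 5.18 in DSS day 1, while Fcgr1 is at 9.09 or above in all 6 libraries.

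Genes that work with the 10 were read from lists, none of whose genes edgeR called in any comparison. For day 1 against the control, edgeR at an unadjusted p under 0.05 found 0 of 5 Fc gamma receptor genes tested, 4 of 10 complement genes, 2 of 6 ligand genes, 2 of 9 genes of the CD14 and TLR4 pathway and 2 of 18 recruited-type monocyte genes, all higher, 0 of 14 shared myeloid genes, and 3 of 11 further resident-type genes, 1 higher and 2 lower, where 32.6% of all genes passed. DESeq2 called 1, 3, 0, 0, 7, 1 and 2 of these genes in the same order of lists, where it called 10.4% of all genes. The counts that follow are of genes 2-fold or more apart, with at least 1 RPKM in either library. Higher than in the control were 12.8%, 4.52% and 7.39% of all genes in PhIP/DSS on days 1, 3 and 7. In DSS these shares were 5.72%, 7.74% and 7.69%. Lower than in the control were 10.7%, 5.11% and 4.68% in PhIP/DSS and 7.19%, 7.47% and 6.2% in DSS. Between the arms, 7.43% were higher in PhIP/DSS on day 1 and 4.3% lower on day 3. Of 5 Fc gamma receptor genes, 4 were higher in PhIP/DSS day 1 than in DSS day 1 and 4 were lower in PhIP/DSS day 3 than in DSS day 3, the exception by day being Fcgrt, the neonatal Fc receptor, at 27.2 against 31.0 RPKM on day 1 and 30.9 against 31.4 RPKM on day 3. Fcer1g, the signalling chain that Fcgr1 needs, had 162, 9.91 and 24.1 RPKM in PhIP/DSS on days 1, 3 and 7, 18.4, 72.0 and 54.6 RPKM in DSS, and 5.35 RPKM in the control. It thus had the same order of days as Fcgr1 in each arm, and the inhibitory receptor Fcgr2b did too, at 22.6, 1.91 and 5.81 RPKM in PhIP/DSS, 3.46, 11.6 and 8.87 RPKM in DSS, and 0.671 RPKM in the control.

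Of 12 complement partners of C1q, 9, 3 and 8 were higher than in the control in PhIP/DSS on days 1, 3 and 7 and 5, 7 and 6 in DSS, with none lower. C3, the central component that C1q activation leads to, had 27.4, 4.06 and 10.3 RPKM in PhIP/DSS, 5.27, 25.6 and 12.1 RPKM in DSS, and 1.83 RPKM in the control. C2, the protease that joins C4 in the classical convertase, was instead highest on day 7 of each arm, as the C1q chains were in DSS, with 2.22, 3.37 and 9.77 RPKM in PhIP/DSS, 2.12, 2.20 and 5.96 RPKM in DSS, and 0.888 RPKM in the control. Serping1, the inhibitor of C1, had 22.4, 3.94 and 7.39 RPKM in PhIP/DSS, 5.11, 9.42 and 7.78 RPKM in DSS, and 1.35 RPKM in the control.

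Of 8 ligand genes of the CSF1 receptor, CCR2 and related receptors, 5 were higher in PhIP/DSS day 1 than in DSS day 1 and 2 were lower on day 3. Ccl2, the main ligand of CCR2, had 9.16, 0.884 and 1.18 RPKM in PhIP/DSS on days 1, 3 and 7, 1.99, 1.84 and 0.902 RPKM in DSS, and 0.162 RPKM in the control. The related chemokine genes Ccl8 and Ccl7 had no read in the control. Ccl8 had 4.53, 0.459 and 2.53 RPKM in PhIP/DSS and 0.443, 0.220 and 0.937 RPKM in DSS on days 1, 3 and 7. Ccl7, named after its values had been seen, had 3.60, 0.130 and 3.92 RPKM in PhIP/DSS and 0.502, 0.624 and 0.133 RPKM in DSS. Its levels on PhIP/DSS days 1 and 7 thus lay close together, and no counting interval is given for it. For Ccr2 the ratio of these 2 libraries, day 7 over day 1, was 1.09 (0.742 to 1.60). Il34, the second ligand of the CSF1 receptor, lay between 6.38 and 10.7 RPKM in all 7 libraries, and Csf1 between 0.591 and 2.39 RPKM. Of 10 genes of the CD14 and TLR4 pathway, 2, 0 and 2 were higher than in the control in PhIP/DSS on days 1, 3 and 7. The shares of all genes there were 12.8%, 4.52% and 7.39%. In DSS it was 0, 2 and 2 of the 10, against 5.72%, 7.74% and 7.69% of all genes. Cd14 itself was 2-fold or more higher in 5 of the 6 treated libraries, and the adaptor Myd88 stayed between 22.0 and 32.7 RPKM.

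A wider list of 20 resident-type macrophage genes, 19 of them with reads, had 7, 0 and 4 members higher than in the control in PhIP/DSS on days 1, 3 and 7 and 0, 4 and 5 in DSS, with 3 lower in PhIP/DSS day 1 and 1 lower in DSS day 3. Apoe, a lipid carrier of macrophages, had 97.5, 32.4 and 75.8 RPKM in PhIP/DSS, 32.5, 40.7 and 49.9 RPKM in DSS, and 18.4 RPKM in the control, whereas Gas6 was below its control level of 185 RPKM in all 6 treated libraries. Of 20 recruited-type monocyte genes, 18, 5 and 16 were higher than in the control in PhIP/DSS and 10, 17 and 15 in DSS, with 1 lower in PhIP/DSS day 3 and 1 in DSS day 1. Of 17 genes shared by macrophages and other myeloid cells, 15, 1 and 11 were higher than in the control in PhIP/DSS and 5, 11 and 11 in DSS, with none lower. Between the arms, 18 of the recruited-type genes were higher in PhIP/DSS on day 1 and 16 were lower on day 3, and Il1b, an inflammatory cytokine of monocytes and neutrophils, had 263 RPKM in PhIP/DSS day 1 against 17.7 RPKM in DSS day 1 and 7.51 against 127 RPKM on day 3. Plac8, the gene of this list with the highest mean level, was less than 2-fold apart between the arms. It had 992 against 855 RPKM on day 1 and 954 against 1022 RPKM on day 3. Several genes of this list are also made by neutrophils, whose markers took the same sides.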

How the data were processed

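Total RNA of scraped colon lining was enriched for mRNA with oligo(dT) beads and sequenced on an Illumina HiSeq, per the labels' protocols. The deposited tables hold, per the file headers, the count of unique reads of each gene ID, its length, the percent of that length covered and its RPKM. The RPKM values the authors deposited equal reads per kilobase per 1000000 reads of the table's own total to within a relative deviation of 7.8e-14. The submitters' processing notes name mm10 and FastQC; aligner, counter, annotation release and strand: not given in the sources used here. Groups and days follow the sample labels, while the table names carry the day codes 3, 7 and 17 for days 1, 3 and 7, and 7 for the control.

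Tables were joined on gene ID, with a missing gene set to 0, and 17983 of 18036 IDs received a symbol. The members, classes and gene lists were chosen with earlier results of these data known. Ratios between 2 libraries are scaled by library total, with exact conditional 95% intervals that cover counting error only. Counts of genes at 1 RPKM or more in at least 2 libraries (12061 genes) were fitted with edgeR 4.0.16 (TMM, quasi-likelihood, Benjamini-Hochberg adjustment over all genes); each day is the mean of both arms, the common dispersion was 0.0563, and the p-values measure how the arm difference varied over days, not the spread between mice. Alternatives used DESeq2 1.42.0 and limma 3.58.1 (R 4.3.3, Python 3.11.15). The edgeR script was tested on simulated data. Besides the 10 members, genes were named from those with the highest mean RPKM over the 7 libraries, at most 3 from a cell type list and 5 from a pathway list. Not all of these are given, Calr and Ticam1 being among those left out. The 2 most similar profiles per member were named as well. Ptprc, used for ratios, Ccl7, and Cd53, given as the upper end of a range, were named outside this rule. No columns of other samples were present.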

Additional observations from a re-analysis of the deposited data

Results flagged for a closer look

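For 6 of the 10 genes the change between days went opposite ways in the arms, each arm being 1 library per day, so these differences were not tested. Each value is the PhIP/DSS log2 ratio minus the DSS log2 ratio. For day 3 over day 1 it was -4.97 for Cd68, -4.21 for Adgre1, -4.67 for Csf1r, -3.35 for Cd14, -3.27 for Ccr2 and -6.84 for Fcgr1. Cd68, for example, had a log2 ratio of -3.36 in PhIP/DSS and 1.62 in DSS. For day 7 over day 1 it was -4.15 for Cd68, -2.74 for Adgre1, -3.51 for Csf1r, -2.55 for Cd14 and -4.74 for Fcgr1. Only steps of at least 2-fold in both directions were counted, which the C1q chains and Mrc1 did not make. Of 30 contrasts checked in the 10 genes, 11 were flagged. The share of all genes with such opposite steps is not given here, so these counts have no background beside them. The summed neutrophil, fibroblast and endothelial markers took the same sides as the 6 genes from day 1 to day 3, and their part was not tested.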

How the results depend on the processing

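The limits are those of the design: 1 library per condition, 3 mice per pool, and members such as Fcgr1, Ccr2 and Adgre1 that rest on 1, 6 and 5 reads in the control. No paired analysis was possible because each group had 1 library, so that no replicate numbers are shared; the arms are matched by day through the day levels of the fit, and without these edgeR also called 0 of the 10 genes and 0.0% of all genes for PhIP/DSS against DSS. Of the 10 genes, edgeR called 0 in each comparison. DESeq2 called 3 for day 1 and 2 for day 7 against the control (10.4% and 4.0% of all genes), and edgeR without the PhIP term called 1 for each of these days (Mrc1; 10.8% and 0.489%). Leaving out each treated library in turn gave 0 to 10 calls for day 1, 0 to 8 for day 3 and 0 to 10 for day 7 against the control, 0 to 5 for day 7 against day 1, and 0 to 3 for PhIP/DSS against DSS. Every such call came without DSS day 1 or without PhIP/DSS day 1, and the cause was not tested. Without DSS day 1 edgeR called 35.4%, 17.6%, 15.4%, 24.7% and 2.27% of all genes in these 5 comparisons, and without PhIP/DSS day 1 it called 11.4%, 18.0%, 15.8%, 4.98% and 2.03%. At a 3-fold limit 1 of the 10 genes was higher than the control in PhIP/DSS day 3 and 2 in DSS day 1 (2.22% and 2.67% of all genes), against 6 and 5 at 2-fold. For PhIP/DSS against DSS on day 7, 1 gene was higher and 4 lower at 1.5-fold (6.13% and 5.49% of all genes), and 0 lower at 3-fold (0.945%). The recruited minus resident difference reversed in PhIP/DSS day 3 (-0.19 with pseudocount 1, -0.0428 from summed RPKM, -0.0293 without Fcgr1), PhIP/DSS day 7 (-0.39, -0.62 and -0.057) and DSS day 1 (-0.24, -0.26 and -0.43). The setting without Fcgr1 was chosen after seeing the data. The single-gene values counted next cover 32 results. They are the 10 genes on each day against the control, Mrc1 for day 7 against day 1, and C1qa for PhIP/DSS against DSS. The last 2 were taken for their unadjusted edgeR p under 0.05, and the other genes of those comparisons were not counted. There the median over the 10 changed sign: for day 7 against day 1 it was -0.20, and 1.44 without PhIP/DSS day 1. The median PhIP term changed sign too, as given above. Of 416 single-gene values under other settings, 361 kept their side of the threshold, 55 passed it, and 0 reversed; with 1 treated library left out, the log2 difference of day 1 from the control lay between 0.54 and 3.50 for Cd14 and between 1.75 and 1.78 for Mrc1.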

Other observations

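Ccr2 and Csf1r, which mark the entry and the maturation of monocyte-derived macrophages, had ratios that lay closer together in DSS than in PhIP/DSS. Ccr2 over Csf1r was 0.114, 0.306 and 0.433 in PhIP/DSS on days 1, 3 and 7, 0.184, 0.188 and 0.183 in DSS on those days, and 0.240 in the control. Ccr2 rested on 19 to 59 reads in PhIP/DSS and 15 to 51 in DSS. No counting interval is given for these ratios, so their closeness in DSS may be less exact than it looks. The PhIP/DSS day 7 library, with the highest ratio, also had the highest sum of 8 B and plasma cell markers, 92.7 RPKM, against 47.2 RPKM in DSS day 7 and 27.8 RPKM in the control. It was highest as well in the sum of 8 T cell markers (13.5 RPKM, against 4.51 in DSS day 7 and 11.1 in the control). The same held for 7 mast cell markers (50.1 RPKM, against 23.3 and 35.8). Whether any of these move together with the ratio beyond these libraries was not tested.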
